A study of Mus musculus with 12 samples.

Results

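The array probes of 10 genes of the NF-κB pathway were followed in murine small intestine before and after fasts of 12, 24 and 72 h. The genes were Nfkbia, Nfkb1, Nfkb2, Rela, Relb, Ikbkg, Ikbkb, Traf2, Traf3 and Traf6. Matching these names to the gene names in the 12 h scanner files gave 12 probes of 8 genes, out of 20281 probes on the array. Traf2 and Traf6 had no matching probe. The fed files give other names to the Ikbkg probe, to Rela A_65_P08327 and A_65_P11040 and to Ikbkb A_65_P08318. The genes were chosen by earlier results of these arrays, the log2 ratios at 72 h against fed, so every 72 h value of these genes is given as a description without a test. The fed values also entered that choice, and the tests of 12 h and 24 h against fed are not independent of it.

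All mice were male FVB mice, with the fast beginning at 6 weeks of age by taking away chow, and RNA came from full-thickness small intestine. The mice were kept in metabolic cages, and late in the longer fasts an infrared lamp kept them warm. The 72 h pools had this warming and the fed and 12 h pools did not. Fasting and warming thus cannot be told apart at 72 h against fed, and the part of the lamp was not tested. Each array carried Cy3-labelled cDNA from a pool of 2 mice, with 3 pools per time point and 12 arrays in all, and a Cy5-labelled common reference made from 6 fed mice. For fed replicate 3 the label of the reference sample names mice 5-6 only, although its labelling protocol names the pool of 6. All arrays had the sample in Cy3, so a dye effect of a probe stays in its ratio. It cancels between groups only where both channels behaved alike, and Cy5 intensity differed between the file formats described below. In such bulk tissue, fewer cells of a type and less RNA per cell cannot be told apart.

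NF-κB is a family of dimeric transcription factors built from Rela, Relb, Rel, Nfkb1 and Nfkb2. In resting cells the dimers are held in the cytoplasm by IκB proteins such as Nfkbia. Ligands of the TNF, interleukin-1 and Toll-like receptor families recruit TRAF adaptors and activate the IκB kinase complex, in which Ikbkb is a catalytic and Ikbkg the regulatory subunit. The IκB protein is then degraded and the dimers enter the nucleus, where Nfkbia is itself a target gene. In the intestine the pathway is known for its part in epithelial defence and inflammation.

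By the RefSeq gene table (GRCm38.p6), Nfkbia lies at chr12:55489409-55492647, Traf3 at chr12:111166321-111267155, Nfkb1 at chr3:135584655-135691969 and Nfkb2 at chr19:46300994-46312400. Rela lies at chr19:5637442-5648134, Relb at chr7:19606217-19629438, Ikbkg at chrX:74393233-74456792 and Ikbkb at chr8:22659205-22706589. The position of the probes within these genes was not analysed here. The promoter table of RefSeq (build GRCm38.p6) held 12 start sites for 7 of the 10 genes, with none for Nfkb1, Relb and Ikbkb. In the 250 bases before each start, the κB motif, the decameric site bound by NF-κB dimers, was searched on both strands, with overlapping matches allowed. It was found at 5 of the 12 starts, which belong to Nfkbia, Nfkb2 and Traf3, and at 7.25% of the 32851 promoters in the table. Nfkbia, Traf3 and Ikbkg are shown because their ratios at 72 h lay farthest above fed, and Nfkb2 because its start has overlapping and repeated matches. Capitals mark the matched bases, and each sequence runs to the last base before the start.
Nfkbia, chr12:55492648-55492897, minus strand: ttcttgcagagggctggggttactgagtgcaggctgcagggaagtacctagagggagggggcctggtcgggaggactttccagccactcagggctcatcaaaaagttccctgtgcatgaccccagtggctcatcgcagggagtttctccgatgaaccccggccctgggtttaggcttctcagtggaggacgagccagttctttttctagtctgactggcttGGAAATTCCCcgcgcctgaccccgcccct
Traf3, chr12:111166120-111166369, plus strand: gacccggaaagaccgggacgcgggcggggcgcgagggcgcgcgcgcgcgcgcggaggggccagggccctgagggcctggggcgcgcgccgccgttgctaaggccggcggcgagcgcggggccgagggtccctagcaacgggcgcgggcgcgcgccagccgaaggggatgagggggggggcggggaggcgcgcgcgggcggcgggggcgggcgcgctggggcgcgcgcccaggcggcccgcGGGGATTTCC
Nfkb2, chr19:46304487-46304736, plus strand: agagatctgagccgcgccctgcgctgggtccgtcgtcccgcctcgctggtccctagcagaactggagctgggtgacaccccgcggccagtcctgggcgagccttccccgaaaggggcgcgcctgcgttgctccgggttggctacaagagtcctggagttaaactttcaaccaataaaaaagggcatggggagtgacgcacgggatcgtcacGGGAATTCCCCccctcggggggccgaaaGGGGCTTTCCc
Ikbkg, chrX:74393041-74393290, plus strand: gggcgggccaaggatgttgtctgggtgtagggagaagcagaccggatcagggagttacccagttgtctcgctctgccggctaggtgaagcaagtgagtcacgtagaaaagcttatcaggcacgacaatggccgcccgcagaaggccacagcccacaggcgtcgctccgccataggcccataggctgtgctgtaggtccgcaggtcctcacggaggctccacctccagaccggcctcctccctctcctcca
The match began 29 bases before the start in Nfkbia and 10 bases before it in Traf3. In Nfkb2, matches began at 39, 38 and 11 bases before this start. None of the 4 Ikbkg starts had a match in its window, which says only that these letters are not there. A match is a feature of the sequence and was not tested for binding here.

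Throughout, a level is the log2 ratio of the sample (Cy3) over the reference (Cy5) after background correction and quantile normalization, and a difference is the difference of 2 group means of these ratios, with the standard error (SE) of the limma fit over all arrays. A probe was called at an adjusted p below 0.05 (limma, Benjamini-Hochberg over all probes). The median probe intensity was 3.36 to 6 times the local background in Cy3 and 1.65 to 2.11 times in Cy5. The fed and 72 h files share one file format, with a median Cy5 intensity of 133.5 to 142 on the fed and 124 to 134 on the 72 h arrays. The 12 h and 24 h files share another format, with 404.5 to 627 and 393 to 436. For 12 h or 24 h against fed, the time of fasting and the file format therefore cannot be told apart, whereas 72 h against fed and 24 h against 12 h each stay within one format. Pools of a group held different mice, but the labels do not say whether they were handled separately afterwards.

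At 72 h of fasting, 3 genes of the pathway stood far above their fed level. These were Nfkbia, the IκB inhibitor, Ikbkg, the regulatory kinase subunit, and Traf3, an adaptor that restrains the non-canonical branch. Nfkb1, the p105/p50 subunit, was the one gene with all 72 h pools below all fed pools. At 12 and 24 h the probes that passed the test were those of Nfkb2 and 1 of the 3 Rela probes, both higher than fed.

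**Figure D1:**
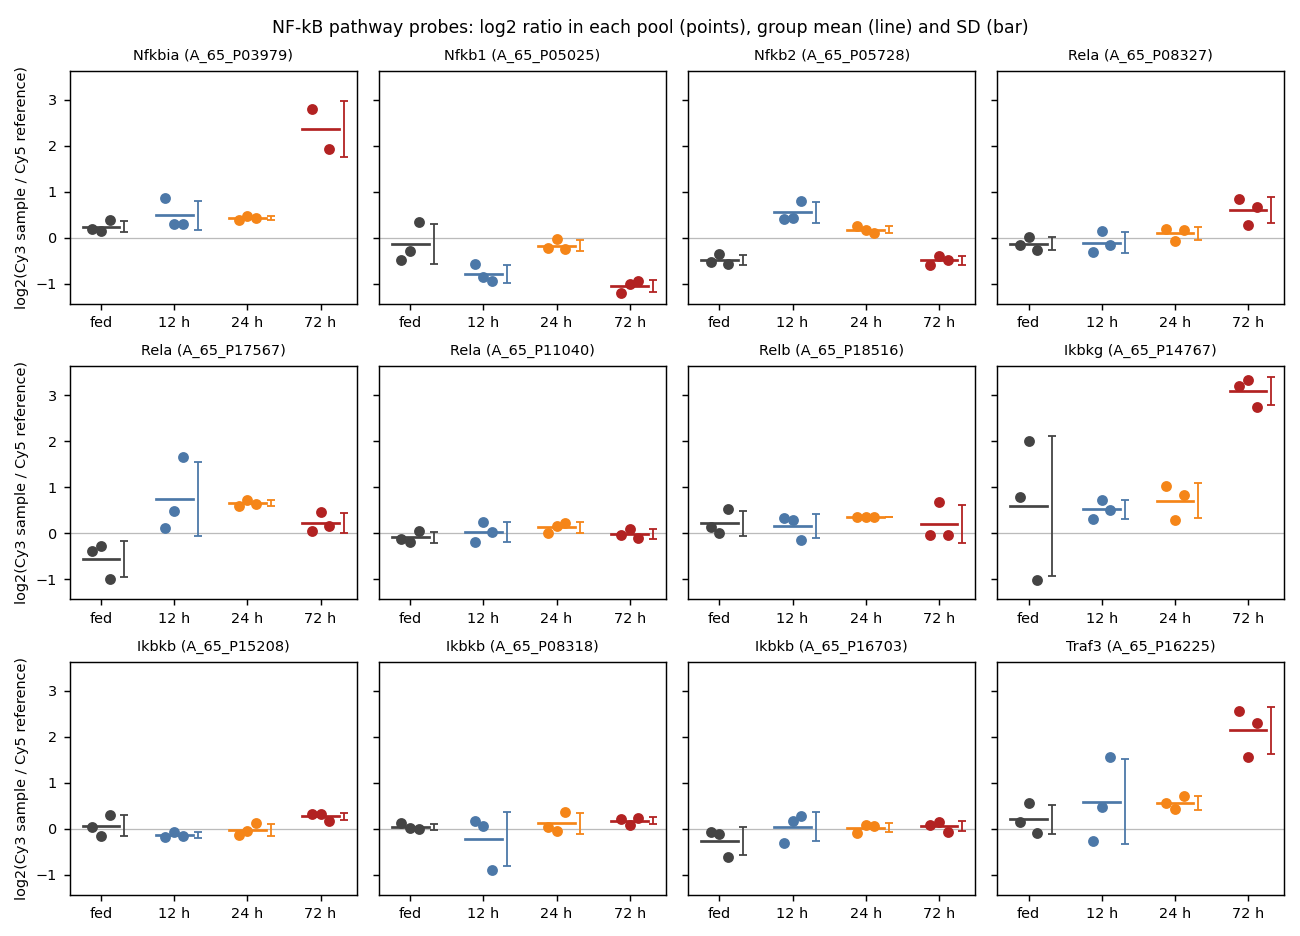
Log2 ratio of Cy3 (sample) over Cy5 (reference) on the y axis for each of the 12 probes, in fed, 12 h, 24 h and 72 h pools on the x axis. Points are pools, lines are group means and bars are SD (n = 3, but n = 2 for Nfkbia at 72 h). The 72 h pools of Nfkbia, Ikbkg and Traf3 lie above all other pools of their probe, and the fed pools of Ikbkg range from -1.01 to 2.01.

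The inhibitor Nfkbia was close to its fed level at 12 and 24 h. Its ratio was 0.19, 0.15 and 0.37 in the fed pools, 0.86, 0.30 and 0.30 in the 12 h pools and 0.39, 0.47 and 0.43 in the 24 h pools. At 72 h it was 2.80 and 1.93 in replicates 2 and 3, and the spot of replicate 1 was left out because the scanner software marked it as an outlier. Both remaining 72 h pools lay above all 9 earlier pools. With the marked spot kept, replicate 1 read 1.69, which is also above them. The 72 h mean exceeded the fed mean by 2.12 ± 0.25 (SE, n = 2 and 3), or 4.36-fold, and by 1.91 ± 0.24 with the spot kept. The difference lay in the sample channel, where Cy3 was higher by 2.15 on the log2 scale while the Cy5 reference differed by 0.03. The differences at 12 h (0.25 ± 0.22, adjusted p = 0.486) and 24 h (0.19 ± 0.22, adjusted p = 0.608) were not called, although all 24 h pools lay just above the fed pools.

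Nfkb1 and Nfkb2 encode the precursor proteins p105 and p100, which are processed to p50 and p52 and can also hold Rel proteins in the cytoplasm. They took different courses. Nfkb1 read -0.48, -0.28 and 0.34 in the fed pools and -1.21, -1.01 and -0.94 at 72 h, and these groups do not overlap. The 72 h mean was 0.91 ± 0.20 (SE, n = 3 and 3) below fed on the log2 scale, a 1.88-fold lower ratio. In Cy3 alone Nfkb1 differed by -0.56, and in Cy5 by 0.35. At 12 h Nfkb1 read -0.57, -0.85 and -0.94, all below the fed pools, and at 24 h -0.23, -0.03 and -0.26, within their range. The 12 h difference of -0.65 ± 0.20 missed the threshold (adjusted p = 0.0528). The reference moved more than the sample at this time, and Cy5 was 0.85 ± 0.19 higher at 12 h (adjusted p = 0.00991) while Cy3 differed by 0.21 (adjusted p = 0.485).

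Nfkb2 had a higher ratio at 12 and 24 h and the fed level at 72 h. It read -0.52, -0.37 and -0.58 in the fed pools, 0.41, 0.43 and 0.80 at 12 h, and 0.26, 0.16 and 0.10 at 24 h. All pools at 12 and 24 h lay above all fed pools, by 1.04 ± 0.15 (adjusted p = 0.00287) and 0.66 ± 0.15 (adjusted p = 0.0181). At 72 h it was back at -0.60, -0.39 and -0.49, a difference from fed of -0.00 ± 0.15 on the log2 scale. Part of the early difference was again in the reference channel, with Cy5 lower by 0.60 at 12 h and by 0.29 at 24 h. In Cy3 alone Nfkb2 was higher by 0.44 (adjusted p = 0.189) and 0.38 (adjusted p = 0.212), and neither was called. With each array centred on its median the differences were 0.70 (adjusted p = 0.057) and 0.60 (adjusted p = 0.0797), and with only the fed and 12 h arrays in the fit the 12 h difference had an adjusted p of 0.0827. The call at 24 h was lost without fed replicate 1 (adjusted p = 0.0705), without fed replicate 3 (adjusted p = 0.0545) and without 24 h replicate 1 (adjusted p = 0.0692).

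Rela, the p65 subunit that carries the transactivation domain, was measured by 3 probes, which disagreed. Probe A_65_P08327, the brightest, read -0.16, 0.02 and -0.26 in fed, -0.32, 0.14 and -0.15 at 12 h, and 0.19, -0.06 and 0.16 at 24 h. At 72 h it read 0.85, 0.28 and 0.67, above all earlier pools, with a difference from fed of 0.73 ± 0.18. In Cy3 alone this difference was 0.60 ± 0.32, and the 72 h and fed pools overlapped. Probe A_65_P17567 read -0.39, -0.28 and -1.01 in fed, and 0.11, 0.49 and 1.65 at 12 h. Its 24 h pools read 0.59, 0.73 and 0.65 and its 72 h pools 0.04, 0.47 and 0.15. It thus lay above fed at all 3 times. Probe A_65_P11040 stayed within -0.20 and 0.25 on all 12 arrays, with a difference of 0.07 ± 0.16 at 72 h.

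Of these, A_65_P17567 passed the test at 12 h (1.31 ± 0.31, adjusted p = 0.0191) and at 24 h (1.22 ± 0.31, adjusted p = 0.0257). Its Cy3 level was also called higher at both times, by 0.75 (adjusted p = 0.0189) and 0.72 (adjusted p = 0.0171), and its Cy5 level was lower by 0.56 and 0.50. The probe was dim, and Cy3 was well above background on 2 of the 3 fed arrays. In 12 h replicate 3, the highest pool at 1.65, the Cy5 spot was not well above background, and without this pool the 12 h difference was 0.86. Its 12 h call was lost without fed replicate 3 (adjusted p = 0.0857) and with only the fed and 12 h arrays in the fit (adjusted p = 0.132). Its 24 h call was lost without fed replicate 1, fed replicate 3 or any single 24 h replicate, with adjusted p from 0.0638 to 0.104. The other Rela probes were not called at 12 h (0.02 ± 0.18, adjusted p = 0.957, and 0.12 ± 0.16, adjusted p = 0.65) or at 24 h (0.23 ± 0.18, adjusted p = 0.446, and 0.22 ± 0.16, adjusted p = 0.392). Probes A_65_P08327 and A_65_P17567 carry the same RefSeq transcript accession in the files, and that of A_65_P11040 is not among the mouse RefSeq transcripts used here. Of the Rela probes, only A_65_P17567 is named Rela in the fed files too. Whether each probe matches the Rela transcript was not checked.

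Relb, the subunit that pairs with p52 in the non-canonical branch, moved little. It read 0.12, -0.01 and 0.52 in fed, and 0.32, 0.30 and -0.15 at 12 h. The 24 h pools read 0.35, 0.36 and 0.35 and the 72 h pools -0.04, 0.69 and -0.03. All fasted groups overlapped with fed. The differences were -0.06 ± 0.22 at 12 h (adjusted p = 0.888), 0.14 ± 0.22 at 24 h (adjusted p = 0.716) and -0.01 ± 0.22 at 72 h.

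The IκB kinase subunits differed from each other. Ikbkg, also known as NEMO, binds ubiquitin chains and holds the kinase complex together. Its probe read 0.79, 2.01 and -1.01 in the fed pools, 0.31, 0.72 and 0.51 at 12 h, and 1.02, 0.29 and 0.82 at 24 h. At 72 h it read 3.20, 3.34 and 2.75, above all other pools. The fed pools had an SD of 1.52 (n = 3), and in fed replicate 3 the spot was not well above background in Cy3. The 72 h mean exceeded fed by 2.50 ± 0.51 (SE, n = 3 and 3), or 5.67-fold, and the value ranged from 1.70 to 3.21 when single arrays were left out. Against 12 h and 24 h, whose pools were close together, the 72 h mean was higher by 2.58 ± 0.51 and 2.39 ± 0.51, across the 2 file formats. In Cy3 the 72 h difference from fed was 2.17, and in Cy5 it was -0.33. Before normalization, the Cy3 intensity of fed replicate 2 (1560) lay above those of 72 h replicates 1 and 2 (1522 and 1552.5), so the unnormalized intensities of both groups overlap. Neither early difference was called (-0.08 ± 0.51 at 12 h, adjusted p = 0.933, and 0.11 ± 0.51 at 24 h, adjusted p = 0.911). The 12 h files give this probe the gene number of mouse Ikbkg but write the symbol in capitals. Its accession is not among the mouse RefSeq transcripts used here, and the match of the probe to the mouse transcript was not checked. The accessions of the Traf3 probe and of every Ikbkb probe are also not among these transcripts, and their match was not checked either.

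Ikbkb, the catalytic subunit of the canonical branch, was measured by 3 probes, all with small differences. Probe A_65_P15208 read 0.03, -0.15 and 0.31 in fed and 0.31, 0.32 and 0.17 at 72 h, a difference of 0.20 ± 0.16, and the groups overlap. Probe A_65_P08318 differed by 0.14 ± 0.23 at 72 h, with 12 h replicate 3 at -0.89 as its lowest pool. Probe A_65_P16703 was not well above background in Cy3 on any fed array. Its fed level is therefore a bound. By group means, its level was at least 1.03-fold higher at 12 h, at least 1.11-fold at 24 h and at least 1.04-fold at 72 h. These bounds carry no error and do not establish an increase, and the ratios at 12 h and 24 h overlapped with fed. In 12 h replicate 2 and 24 h replicate 3 the Cy5 spot was not well above background. The measured ratio differences, to which the adjusted p of 0.297 at 12 h and 0.361 at 24 h belong, are not exact for this probe. These bounds set the mean of the fasted group against the lowest signal well above background on the fed arrays. They come from the channels after loess and A-quantile normalization and are open to dye bias. None of the 3 probes was called at 12 h or 24 h, and the other 2 had differences from -0.26 to 0.07 with adjusted p from 0.419 to 0.873.

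Traf3, of the 3 TRAF adaptors among the genes the one with a probe, keeps the kinase Map3k14 low by directing its ubiquitination and also acts in interferon signalling. It read 0.14, 0.55 and -0.08 in the fed pools, -0.27, 0.48 and 1.56 at 12 h, and 0.56, 0.42 and 0.72 at 24 h. At 72 h it read 2.55, 1.57 and 2.30, above all other pools, with replicate 2 just over 12 h replicate 3. The difference from fed was 1.94 ± 0.36 (SE, n = 3 and 3), or 3.83-fold, with Cy3 higher by 1.91 and Cy5 by -0.02. The 12 h pools had an SD of 0.92 (n = 3), and neither early difference was called (0.39 ± 0.36, adjusted p = 0.508, and 0.36 ± 0.36, adjusted p = 0.552).

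**Figure D2:**
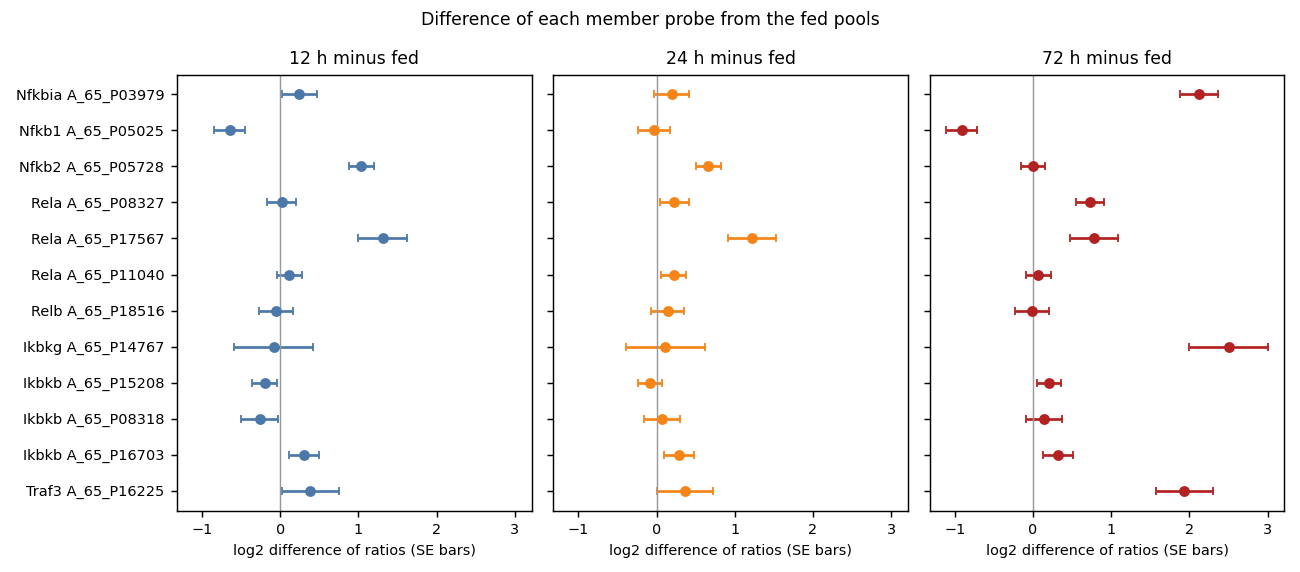
Difference of the log2 ratio from fed (x axis, log2 units) for each of the 12 probes (y axis) at 12 h, 24 h and 72 h. Points are differences of group means, bars are SE of the limma fit (n = 3 per group, 2 for Nfkbia at 72 h). Nfkb2 and Rela A_65_P17567 lie highest at 12 h and 24 h, and Ikbkg (2.50), Nfkbia (2.12) and Traf3 (1.94) lie highest at 72 h.

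Counted over the probes, 2 of 12 were called at 12 h, both higher, beside 10.9% of all 20279 probes tested (4.87% higher). At 24 h also 2 of 12 were called, both higher, beside 10.0% of all probes (3.76% higher). Both comparisons called the same probes, those of Nfkb2 and Rela A_65_P17567, but they share the fed pools, which also entered the choice of the genes. The median difference of the 12 probes was 0.07 at 12 h and 0.21 at 24 h, beside -0.02 and 0.02 over all probes. Pools did not overlap with fed for 3 of 12 probes at 12 h (30.8% of all probes) and for 3 of 12 at 24 h (40.4% of all probes). The shares without overlap were thus below those of the whole array.

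Between 24 h and 12 h, where neither group entered the choice of the genes, none of the 12 probes was called by limma, beside 2.94% of all 20281 probes. At an unadjusted p under 0.05 there were 2, Nfkb1 and Nfkb2. Nfkb1 was 0.61 ± 0.20 higher at 24 h (adjusted p = 0.108) and Nfkb2 0.38 ± 0.15 lower, a difference of -0.38 (adjusted p = 0.187). For Nfkb1 the difference lay in the reference, with Cy3 at -0.11 and Cy5 at -0.72. Pools did not overlap for 3 of 12 probes, beside 23.6% of all probes. Without fed replicate 3, which changes only the estimate of the spread here, Nfkb1 was called (adjusted p = 0.0496).

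At 72 h against fed, 10.6% of all 20273 probes were called, and the 12 probes were not counted by this rule because the comparison chose their genes. As a description, the pools of 7 of 12 did not overlap, beside 41.8% of all probes, and nothing is read from this share. The 7 were Nfkbia, Nfkb1, 2 probes of Rela, Ikbkg, Ikbkb A_65_P16703 and Traf3. In Cy3 alone 5 stood apart from fed, while Rela A_65_P08327 (0.60) and Ikbkb A_65_P16703 (0.24) overlapped with it. The pools at 72 h also lay apart from the 12 h pools for 6 of 12 probes (31.8% of all probes) and from the 24 h pools for 8 of 12 (41.9%). For 6 probes, the 72 h pools lay on one side of all 12 h and all 24 h pools. Nfkbia, Rela A_65_P08327, Ikbkg, Ikbkb A_65_P15208 and Traf3 were above, and Nfkb2 was below. These comparisons cross the file formats, and in Cy3 alone 3 of the 6 overlapped with 1 or both earlier groups. Nfkb2 differed in Cy3 by -0.23 from 12 h and by -0.17 from 24 h and overlapped with both, Rela A_65_P08327 overlapped with 24 h (-0.086) and Ikbkb A_65_P15208 with 12 h (0.028).

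The Cy5 channel carried the reference RNA of fed mice on every array, so its level gives the background shift of each probe between groups. At 12 h against fed, 2 of 12 probes were called in Cy5, beside 21.9% of all probes. They were Nfkb1 (0.85 ± 0.19) and Rela A_65_P11040 (-0.53 ± 0.17, adjusted p = 0.044). At 24 h against fed 1 was called, again Rela A_65_P11040 (-0.62 ± 0.17, adjusted p = 0.0243), beside 20.4%. Between 24 h and 12 h there were 2, beside 14.4%, namely Nfkb1 (-0.72 ± 0.19, adjusted p = 0.028) and Rela A_65_P08327 (1.05 ± 0.31, adjusted p = 0.0394), whose Cy3 level was also higher, by 1.26 (adjusted p = 0.03). At 72 h against fed, within one format, limma called no probe of the array in Cy5 (0%), and 869 of 20273 were at an unadjusted p under 0.05, with 0 of the 12 among them. The size of the change, without its sign, had a median over the 12 probes of 0.42 in Cy5 and 0.28 in Cy3 for 12 h. For 24 h these medians were 0.28 in Cy5 and 0.36 in Cy3, and for 72 h they were 0.10 in Cy5 and 0.40 in Cy3.

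**Figure D3:**
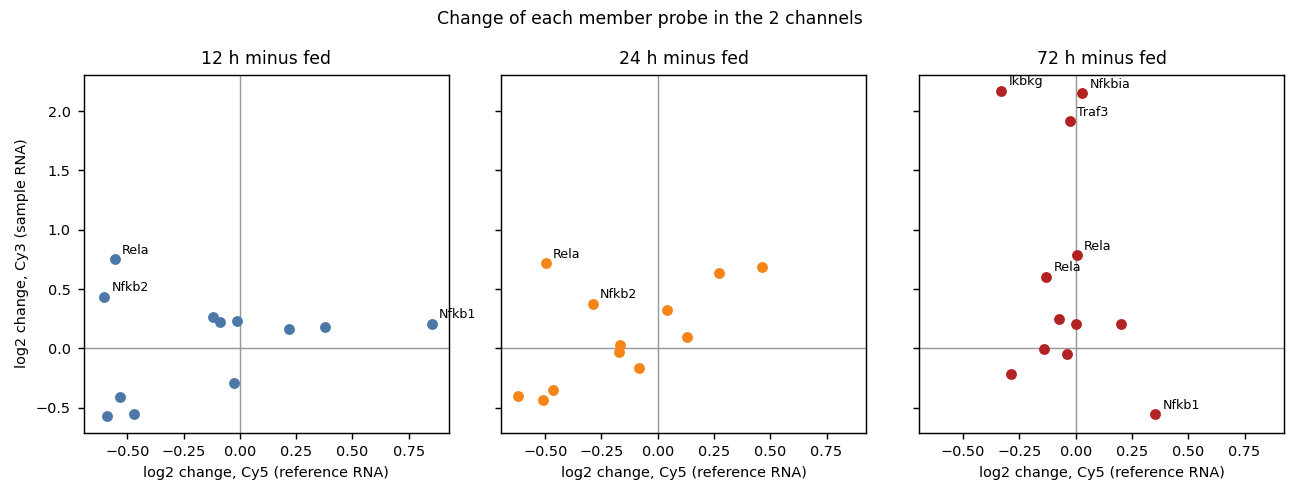
Log2 change of the Cy3 sample channel (y axis) against that of the Cy5 reference channel (x axis) for the 12 probes, at 12 h, 24 h and 72 h minus fed. Each point is a probe, and those whose channels differ by more than 0.6 are named. At 72 h Nfkbia, Ikbkg and Traf3 lie at 2.15, 2.17 and 1.91 in Cy3 and at 0.03, -0.33 and -0.02 in Cy5, while at 12 h Nfkb1 lies at 0.85 in Cy5.

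Markers of the cell types that full-thickness intestine can hold were summed per array in Cy3 (normalized linear intensity). Genes of B and plasma cells (6 of 8 listed had a probe) summed to 3210 to 4410 in fed, 3570 to 4920 at 12 h, 2580 to 3210 at 24 h and 1000 to 1170 at 72 h. T cell genes (3 of 10) summed to 670 to 682 in fed and 496 to 577 at 72 h, and myeloid genes (3 of 11) to 9660 to 41200 and 11300 to 13400. Enterocyte genes (7 of 13) summed to 89300 to 134000 and 105000 to 109000, and smooth muscle genes (6 of 7) to 6010 to 7760 and 7310 to 8040. Endothelial genes (2 of 5) summed to 246 to 302 and 289 to 373, fibroblast genes (4 of 6) to 1120 to 1990 and 1270 to 1580, and the exocrine pancreas gene (1 of 7) to 4350 to 29400 and 5710 to 13800. The sums of B and plasma cell genes and of T cell genes were thus lower in all 72 h pools than in all fed pools, while Nfkbia, Ikbkg and Traf3 were higher. Gene by gene, 2 of the 6 B and plasma cell genes and 0 of the 3 T cell genes were called lower by limma at 72 h, with median ratio differences of -0.55 and -0.06. Also at 72 h, 2 of the 6 smooth muscle genes were called higher, and 1 of 4 fibroblast and 1 of 7 enterocyte genes lower. Over all genes with 1 probe each, 14.8% were called at 72 h and 14.7% at 12 h. At 12 h, when Nfkb2 and a Rela probe were higher, 3 of the 6 smooth muscle genes were called higher (median 1.07), with sums of 7020 to 9480. Of the 7 enterocyte genes, 2 were called higher and 1 lower at 12 h (median 0.73). Fibroblast sums were 2390 to 2690 at 12 h, above all fed pools, with 0 of 4 genes called, and T cell sums lay below all fed pools at both early times (548 to 614 at 12 h, then 441 to 497 for the 24 h pools). The 3 goblet cell names listed (Muc2, Tff3 and Clca3) matched no probe, and other goblet cell genes were not summed. No listed gene with a probe was under background on all arrays of a group. The part of these cells in the results was not tested.

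Most of the other pathway genes were not called. Of 62 further pathway genes listed, 41 had a probe, and the brightest probe of each was used. This list was chosen with earlier results of these data known, so its tests are not independent of that choice. At 12 h, 6 were called higher and 3 lower, beside 14.7% of all genes with 1 probe each. At 24 h, 2 were higher and 3 lower, beside 9.94%. At 72 h, 2 were higher and 1 lower, beside 14.8%. The medians were -0.14, -0.01 and -0.03, beside -0.03, 0.02 and -0.04 over all genes. Between 24 h and 12 h none was called by limma, with 3 at an unadjusted p under 0.05, beside 2.83% of all genes.

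At 72 h the pathway genes whose brightest probe passed the test were a ligand, a kinase and another IκB protein. Tnfsf13b, the B cell survival factor BAFF, fell from 0.66, 0.51 and 0.45 in fed to -0.56, -0.71 and -0.10 (-0.998 ± 0.188, adjusted p = 0.004). Nfkbie, the IκBε protein, rose from 0.04, 0.25 and -0.17 to 1.29, 0.47 and 0.65 (0.76 ± 0.22, adjusted p = 0.0396). Map3k3, a kinase upstream of the IκB kinases, rose by 0.61 ± 0.18 (adjusted p = 0.0475), and it was also higher at 12 h, by 0.96 ± 0.18 (adjusted p = 0.00809). The 72 h calls of Nfkbie and Map3k3 were lost when single arrays were left out, 6 and 9 of the 12 in turn, with adjusted p up to 0.216 and 0.164. That of Tnfsf13b was kept without any one array. Among the dimmer probes, chosen after their values were seen, Chuk A_65_P12716, for the other catalytic IκB kinase subunit, was higher by 1.31 (adjusted p = 0.00612). As with Ikbkg, the symbol of this probe is written in capitals, and its match to the mouse transcript was not checked. The other Chuk probes differed by -0.65 on the brightest (adjusted p = 0.0836) and by -0.31 (adjusted p = 0.239), so the 3 probes disagree.

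At 12 h the largest differences beside Map3k3 were in adaptors. Birc2, a ubiquitin ligase of the TNF receptor complex, fell by 1.13 on the log2 scale (SE 0.15, adjusted p = 0.00196), and at 24 h it was lower by -0.93 ± 0.15 (adjusted p = 0.00373). The files give the Birc2 probe its older name Birc3. Tank, a TRAF-binding protein, was lower by -0.86 ± 0.21 (adjusted p = 0.0196). In Cy3 alone neither was called at 12 h, with Birc2 at -0.56 (adjusted p = 0.0794) and Tank at -0.26 (adjusted p = 0.427). Myd88, the adaptor of Toll-like and interleukin-1 receptors, was higher by 0.80 ± 0.24 (adjusted p = 0.0448), but its Cy3 level differed by 0.05 (adjusted p = 0.876). Irak2, a kinase that acts with Myd88, was higher by 0.78 ± 0.23 (adjusted p = 0.048), with Cy3 at 0.29 (adjusted p = 0.39). At 24 h the other named genes were Map3k14 (-0.71 ± 0.20, adjusted p = 0.0412), Ripk1 (0.64 ± 0.18, adjusted p = 0.0366), Skp1a (-0.64 ± 0.18, adjusted p = 0.0347) and, as the smallest of the 5 called, Ticam1 (0.58 ± 0.17, adjusted p = 0.0478). In Cy3 alone Skp1a differed by -0.13 (adjusted p = 0.649) and Ticam1 by 0.069 (adjusted p = 0.869). The calls of Birc2 were kept without any one array, although that at 12 h was lost with only the fed and 12 h arrays in the fit (adjusted p = 0.0817), and that of Tank was lost without fed replicate 1 or fed replicate 3. The other calls named for 12 and 24 h were each lost when any of 6 to 10 of the 12 arrays was left out, except that of Map3k3 at 12 h. The Map3k3 call was lost with median centring (0.55, adjusted p = 0.202) and with only the fed and 12 h arrays in the fit (adjusted p = 0.0906). Map3k14, which Traf3 keeps low, is the kinase that starts the non-canonical branch. Ripk1 is a kinase of the TNF receptor complex, Skp1a belongs to the ligase that marks IκB for degradation and Ticam1 is the adaptor TRIF.

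Of 37 genes listed as known NF-κB targets, 18 had a probe. The target list was likewise chosen with earlier results of these data known, and its tests are not independent of that choice. At 12 h none was called by limma, with 4 at an unadjusted p under 0.05, beside 14.7% of all genes called. At 24 h 1 was called beside 9.94% of all genes, Ccl2, a monocyte chemokine, at -0.59 ± 0.17 (adjusted p = 0.0488), and its Cy3 level differed by 0.09 in the other direction (adjusted p = 0.704). Between 24 h and 12 h none was called on its brightest probe, with 2 at an unadjusted p under 0.05. A dimmer probe of Bcl2l1, A_65_P07647, chosen after its values were seen, was lower at 24 h. It differed by -1.805 from fed (adjusted p = 0.0103) and by -1.531 from 12 h (adjusted p = 0.037). The other Bcl2l1 probes were not called and differed by 0.34 and 0.07 from fed and by 0.61 and -0.09 from 12 h. At 72 h 5 of 18 were called, 3 higher and 2 lower, beside 14.8% of all genes, with a median of -0.19 over the 18 genes and -0.04 over all genes.

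Lcn2, an iron-sequestering defence protein, rose from 0.03, 0.32 and 0.12 in fed to 1.52, 0.97 and 1.14 at 72 h (1.05 ± 0.30, adjusted p = 0.039). Junb, a subunit of AP-1, rose by 0.70 ± 0.19 (adjusted p = 0.0297). Bcl2l1, which encodes the survival protein Bcl-xL, rose by 1.08 ± 0.32 (adjusted p = 0.0497) on its brightest probe, with 72 h replicate 3 left out as an outlier, and its other probes differed by 0.47 and -0.16 without a call. The difference was 0.40 with median centring (adjusted p = 0.453), 0.59 in Cy3 alone (adjusted p = 0.519) and 0.68 without fed replicate 3 (adjusted p = 0.132). Ccnd1, the cell cycle gene cyclin D1, fell from -0.31, -0.18 and 0.51 to -1.36, -1.12 and -1.18 (-1.23 ± 0.20, adjusted p = 0.00171), and its other probe differed by -0.33 (adjusted p = 0.404). Tap1, a peptide transporter of antigen presentation, fell from -0.08, -0.24 and 0.95 to -0.86, -0.69 and -0.75 (-0.98 ± 0.27, adjusted p = 0.0346). All 5 had 72 h pools apart from the fed pools. The calls of Lcn2, Junb, Bcl2l1 and Tap1 were each lost without fed replicate 3 or 72 h replicate 1, and in all without 9, 5, 9 and 5 of the 12 arrays in turn.

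**Figure D4:**
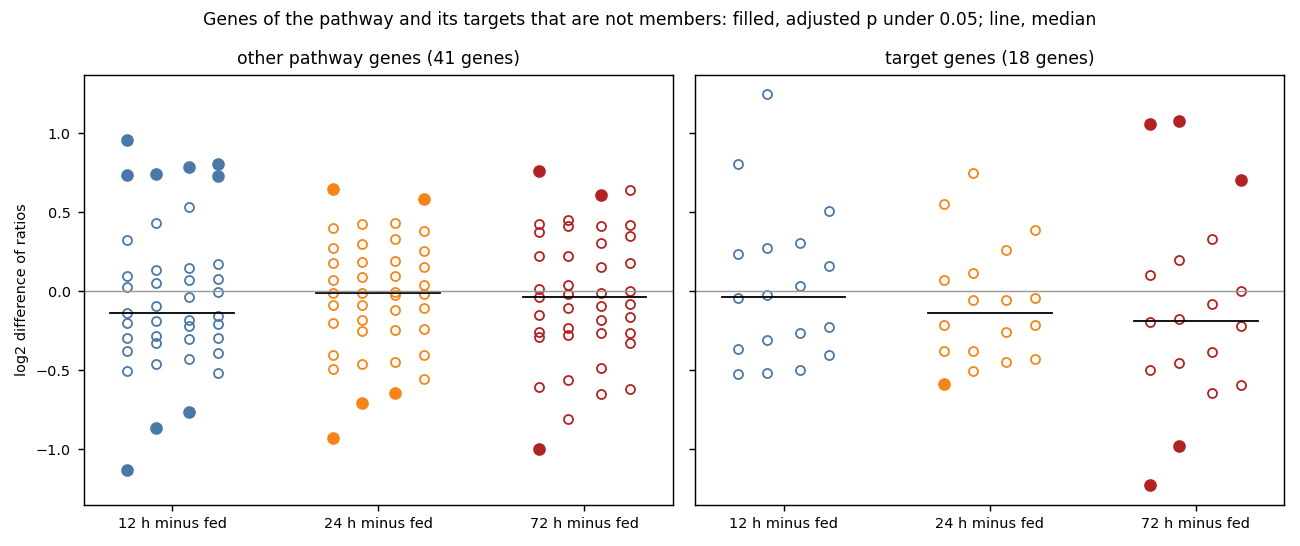
Difference of the log2 ratio from fed (y axis, log2 units) for 41 further genes of the pathway (left) and 18 target genes (right) at 12 h, 24 h and 72 h (x axis). Each point is the brightest probe of a gene, filled where the adjusted p was below 0.05, and lines are medians. Most genes lie within 0.5 of fed, and the filled points lie on both sides at 72 h.

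Among 11134 probes with a gene symbol and a value on all 12 arrays, the 3 most like the Ikbkg probe over the 12 arrays were Timp2, an inhibitor of metalloproteinases (Pearson r = 0.966), H2-Ke6, an enzyme encoded in the histocompatibility region (r = 0.956), and Trim8, a ubiquitin ligase (r = 0.956). They exceeded fed at 72 h by 1.87, 1.47 and 0.82. Their r is a description over 12 arrays that share a reference and its file formats, and 23 probes had r above 0.9. Of the other members with a value on all 12 arrays, Rela A_65_P08327 (r = 0.821) and Traf3 (r = 0.79) were nearest to Ikbkg and Nfkb1 (r = -0.729) farthest. Nfkbia, with a missing array, had r = 0.741 with Ikbkg over its remaining arrays.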

How the data were processed

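Expression was measured in 12 pools of mouse small intestine on Agilent 2-colour arrays of 60-base probes. The authors scanned the arrays and extracted spots with Feature Extraction 6.1.1, and the deposited files hold median intensity per channel, local background and spot flags, not normalized. The deposited value table holds log10 ratios of Cy3 over Cy5, in which decimal points had moved in 1822 of 257352 values. These were restored from their size, 89 unclear ones were left out, and the table served as an alternative only. Groups came from the sample titles.

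Background was corrected by normexp (offset 50) in limma 3.58.1 (R 4.3.3), spots marked as outliers were removed, and the 24 channels were quantile normalized. Log2 ratios were fitted in limma with all 4 time points, and p-values were adjusted by Benjamini-Hochberg over all 20281 probes. The precision is limited by 3 pools per group. The genes and all lists were chosen with earlier results of these data known. All probes of the 10 genes are named; of the other lists, called genes, at most the 5 largest per list and comparison; and the 3 probes most correlated with Ikbkg. A listed gene is its brightest probe, matched by name or gene number. Alternatives covered background, normalization, channel, filters, groups in the fit, the study's thresholds, a replicate block and leaving out each array. The fit was tested on simulated data.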

Additional observations from a re-analysis of the deposited data

Results flagged for a closer look

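Ikbkb, the catalytic IκB kinase subunit, had differences of opposite sign on its probe A_65_P15208, neither of them past a test. All 3 pools at 12 h lay below the fed mean, with a ratio difference of -0.20 (adjusted p = 0.419, limma), and all 3 pools at 72 h lay above it, with a difference of 0.20. In Cy3 alone the 12 h difference was 0.18, with Cy5 at 0.38, so its direction turns in the sample channel. The difference between both times was not tested, since the 72 h values took part in the choice of the genes. At both times the pools overlapped with the fed pools.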

How the results depend on the processing

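The counts of probes whose 72 h pools stood apart, 7 from fed and 6 from both 12 h and 24 h, stayed within 1.5 times under every alternative run. The replicate block and the fit of only 2 groups cannot change these counts, which do not use the fit. In Cy3 alone the probes counted changed. Against fed, 5 stood apart, and Rela A_65_P08327 and Ikbkb A_65_P16703 no longer did. Nfkb1 lay below and Ikbkb A_65_P08318 above all 12 h and 24 h pools. Nfkb2, Rela A_65_P08327 and Ikbkb A_65_P15208 no longer stood apart from both groups. For calls, 12 h against fed gave 2 probes, but 1 in the Cy3 channel alone and 0 with only the 2 groups in the fit, and 1 to 3 without single arrays. 24 h against fed gave 2, but 1 with median centring, 1 in Cy3 alone, and 0 to 2 without single arrays (0 without fed replicate 1, fed replicate 3 or 24 h replicate 1). 24 h against 12 h gave 0, but 1 in Cy3 alone (Rela A_65_P08327), 1 at the study's thresholds (Nfkb1), and 0 to 1 without single arrays. Cy5 calls at 12 h numbered 2, but 1 with no background correction, 1 with background subtracted, 0 with only the 2 groups in the fit and 1 to 6 without single arrays. At 24 h they numbered 1, but 2 with no background correction, 3 with only the 2 groups, and 0 to 4 without single arrays. Of the other pathway and target genes, 9 were called at 12 h, but 4 with no background correction, 3 in the deposited value table, 0 with only the 2 groups, and 2 to 14 without single arrays. At 24 h, 6 were called, but 3 with no background correction, 12 with loess, 13 with median centring, 10 in Cy3 alone, and 1 to 8 without single arrays. At 72 h, 8 were called, but 5 with background subtracted, 14 with loess, 14 with only the 2 groups, and 2 to 14 without single arrays. The cause was not tested. In Cy3 alone the sign turned for Ccl2 at 24 h (0.091) and, beyond the spread of the pools, at 72 h against 24 h for Rela A_65_P08327 (-0.086) and A_65_P11040 (0.18) and against 12 h for Rela A_65_P17567 (0.032). Counting differences that were not called or lay within that spread, it turned for 5 of the 12 probes at 12 h against fed, 5 at 24 h, 3 at 72 h, 6 at 24 h against 12 h, 3 at 72 h against 12 h and 4 at 72 h against 24 h, among them Nfkb1 at 12 h against fed (0.21) and at 24 h against 12 h (-0.11). Over single probes, 1832 alternative values kept their call, stayed uncalled or stayed within the spread of the pools, 177 lost and 7 gained a call, and 37 moved by more than that spread. The 1832 include fits without an array of a group not compared, where the difference itself cannot change, so they overstate stability. With median centring the median difference of all probes was 0.152 at 24 h against fed, 0.119 at 24 h against 12 h and -0.174 at 72 h against 24 h. With quantile normalization these medians were 0.0186, 0.0175 and -0.0087.

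Same-numbered pools came from different mice, and their deviations correlated at -0.297 to 0.128 over 18 pairs, with 2 above 0.1, so the numbers were not taken as pairs. With the replicate block, 2, 2 and 0 probes were called at 12 h, at 24 h and between both, and Cy5 calls were 2 and 1. The counts of pools apart do not use the fit, so the block cannot change them. Calls of other pathway and target genes were 6, 2 and 3 at 12, 24 and 72 h. A block by slide or scan date was not run, since neither was found in the files used here. Signal over background limits the dim probes, in Cy5 above all.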
